A study of Mus musculus with 32 samples.

Results

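The 40 genes described here encode the folding and export machinery of the endoplasmic reticulum (ER): ER chaperones, the unfolded protein response, the translocon and the COPII coat. They were chosen by symbol, with earlier results of these data known, and all 40 were found in the table of 54233 rows. *Ddit3* had a second row without reads, and the 40 rows with reads all passed the filter on low counts, which left 15227 genes in all. The data are bulk RNA-seq of KH2 mouse ES cells, 4 replicates at each of 8 time points. All samples, the uninduced ones included, carried the same single-copy transgene, in which a bidirectional TET-responsive element drives GATA6-FLAG and DsRed2 once doxycycline (Dox) is added. Uninduced cells (0 h) grew in 2i medium with inhibitors of MEK and GSK3 and with LIF. The cells collected at 2, 4 and 8 h were in serum medium with LIF and Dox at 1 µg/ml, and those collected at 16, 24, 48 and 96 h had been given Dox for 12 h and then the serum medium without it. In comparisons with 0 h, the effects of the medium and of Dox cannot be told apart. The study used 1 line. It describes its replicate experiments as independent, but the labels tie no sample to a separate culture, so the p-values measure only the spread between these samples.

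Proteins that are secreted or sit in membranes enter the ER through the Sec61 channel, fold there with the help of chaperones such as BiP and of disulfide isomerases, and leave in vesicles coated with COPII. When unfolded proteins accumulate, the ER membrane sensors IRE1, PERK and ATF6 raise the supply of folding factors, among other means through XBP1, and through ATF4 and CHOP. Primitive endoderm and its derivative, parietal endoderm, secrete large amounts of basement membrane proteins, laminins and type IV collagen among them.

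Levels are normalized counts (reads divided by the size factor of the sample), and changes are given as differences of log2(normalized count + 1), on which a change of 1 is 2-fold. All tests of single genes are from 1 limma fit over the 32 samples with Benjamini-Hochberg adjustment over the 15227 genes tested, and a gene is called at a false discovery rate (FDR) below 0.1. The samples held 3190108 to 12301732 reads on genes. The row of the *Gata6* transgene held no reads at 0 h and 510.3 to 739.5 normalized counts at 2 h. The summed level of 8 ES cell markers was 29452 to 31582 at 0 h and 5045 to 5499.7 at 96 h, and that of 8 primitive endoderm markers was 51.0 to 85.0 at 0 h and 44584 to 57250.0 at 96 h. The summed level of 6 visceral endoderm markers was 4.14 to 12.2 at 0 h, 1473 to 2087 at 48 h and 765 to 920.1 at 96 h. Of these, *Amn* went from a mean of 1.25 at 0 h to 929 at 48 h, *Hnf4a* from 6.60 to 800.1 and *Ttr* from 0 to 22.5, whereas at 96 h *Apob* was at 0 and *Afp* and *Apoa1* reached at most 6.31 and 3.18. The summed level of 6 parietal endoderm markers went from 4526 to 6338 at 0 h up to 169735 to 229211 at 96 h. Most of this sum was *Sparc* and *Lama1*, with means of 113233 and 80208 at 96 h, and *Sparc* was already at 4252 at 0 h. All 6 had a higher mean at 96 h than at 0 h. The part of these shifts in cell state in the results was not tested. Summed over 6 genes each, fibroblast markers were at 10.2 to 12.4 at 0 h and at 7.53 to 21 at 96 h. Trophoblast markers were at 671 to 754 at 0 h, 160 to 193 at 16 h and 237 to 699 at 96 h. The replicates fell into sets, 1 and 2 against 3 and 4: in a chi-square test of the reads of pairs of samples of a time point, the statistic over its degrees of freedom had a median of 1.59 within sets and 11.4 between them. What the sets are is not stated. Counts with each set averaged to 1 value, and named calls lost with it, are given beside the main values, with the share of all genes in the same fit.

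Nearly all of the folding and export genes rose, 9 of them at 2 h and every later time and 21 more from 8 h on. With the replicate sets averaged, 3 were higher at 2 h and every later time (*Atf6*, *Sec62* and *Sec63*), 4 more from 4 h, 9 more from 8 h and 13 more from 16 h on. At 96 h, 38 of the 40 were higher than at 0 h and 1, *Atf4*, was lower, whereas 38% of all genes tested were higher and 38.5% lower. The median log2 change of the 40 genes was 1.33, and that of all genes tested was -0.03. *Dnajc3*, *P4hb*, *Sec24d*, *Xbp1*, *Atf6*, *Calr*, *Manf* and *Pdia5* rose at least 4-fold, with *Dnajc3* up 7.73-fold. *Sec61g*, which encodes the smallest subunit of the translocation channel, was the only one of the 40 that was called in neither direction, at a change of 0.03 ± 0.096 (SE, adjusted p = 0.768).

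In the main values, the course over time had an early step, a return and a sustained rise. At 2 h, 16 of the genes were higher than at 0 h and 2 were lower, beside 22.2% and 22.6% of all genes tested. At 4 h these counts were 10 and 4, beside 24.7% and 23.8%, so that 25% of the 40 genes were higher, near the share of all genes. At 8 h, 32 genes were higher and 2 lower, beside 26.3% and 22.8%, and the median log2 change was 0.34. At 16 h the counts were 34 and 3, beside 28% and 25.3%, and at 24 h 35 and 1, beside 31.2% and 30.7%. At 48 h, 37 were higher and 1 lower, beside 36.1% and 37.3%, with a median log2 change of 1.22. With the replicate sets averaged, 6 genes remained higher at 2 h (*Dnajb9*, *Xbp1*, *Atf6*, *Sec62*, *Sec63* and *Sec23b*) and 1 lower, beside 13.4% and 11.3% of all genes. The share higher at 2 h was then near that of all genes, and so was the share that fell from 2 to 4 h. In that fit 2 were lower at 4 h (12.7% of all genes), 16 higher at 8 h (16.9%) and 30 higher at 16 h (18.8%). At 96 h, 36 were then higher, without *Ddit3* and *Sec61b*, beside 33.6%.

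Large changes came late. At 24 h, 13 of the 40 genes had risen at least 2-fold, beside 11.7% of all genes tested, and 2 at least 4-fold (*Xbp1* and *Atf6*), beside 4.85%. At 48 h, 24 had risen at least 2-fold and 6 at least 4-fold, beside 18.1% and 8.48%. At 96 h these counts were 30 and 8, beside 19.9% and 9.28%. The mean was highest at 96 h in 28 of the genes and at 48 h in 9, and 1 gene each was highest at 0 h (*Atf4*), 2 h (*Sec23b*) and 4 h (*Sec61g*).

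Between successive time points, 3 genes rose and 9 fell from 2 to 4 h, beside 13.6% and 10.9% of all genes tested. From 4 to 8 h, 20 rose and 0 fell, beside 9.51% and 7.57%, and from 8 to 16 h 22 rose and 4 fell, beside 9.44% and 10.6%. From 16 to 24 h, 17 rose and 0 fell, beside 13.3% and 14.8%. The counts were 27 and 1 from 24 to 48 h, beside 29.8% and 27.8%, and 19 and 4 from 48 to 96 h, beside 27.3% and 27.2%. With the sets averaged, 0 rose and 1, *Xbp1*, fell from 2 to 4 h, beside 3.43% and 1.87% of all genes. There were then 6 rises from 4 to 8 h, beside 1.87%, 4 rises and 0 falls from 8 to 16 h, beside 2.09% and 2.17%, and 9 rises from 16 to 24 h, beside 4.08%. From 48 to 96 h, 12 rose and 0 fell, beside 17.2% and 17.6%. Leaving out 1 replicate number also moved some of these counts: the 9 falls from 2 to 4 h became 5, 6, 3 and 3 without replicate 1, 2, 3 and 4, and the 20 rises from 4 to 8 h became 13, 15, 11 and 12. The 4 falls from 48 to 96 h became 0 without replicate 3 or 4, and the 22 rises from 8 to 16 h became 14 without replicate 2, 3 or 4. Calls among all genes tested also fell against 0 h with 1 replicate left out, and for these steps they are not given. Whether the lower counts go beyond the loss of calls among all genes was not tested.

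Comparisons with 2 h keep the cells in serum medium. The 2 h cells had left 2i medium only 2 h before and were on Dox, whereas the 48 and 96 h cells were no longer on it. Dox and the time since 2i medium therefore still differ. At 48 h, 34 of the genes were higher than at 2 h and 2 were lower (*Atf4* and *Sec23b*), beside 36.9% and 38.3% of all genes tested. At 96 h, 37 were higher and 1, *Atf4*, was lower, beside 37.6% and 39.4%. The median log2 changes were 1.00 and 1.23. With the replicate sets averaged, 33 were higher and 2 lower at 48 h, beside 32.4% and 32.9% of all genes. At 96 h these counts were 35 and 1, beside 33.4% and 34.3%.

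**Figure D1:**
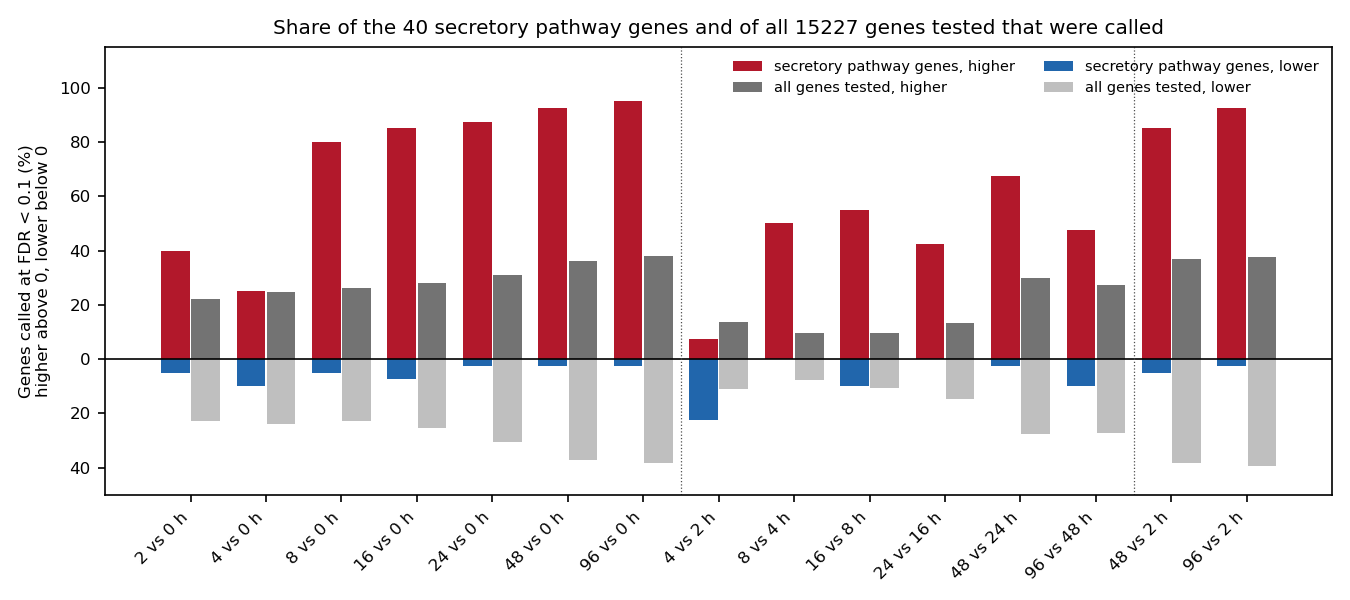
Share of the 40 genes (red and blue) and of all 15227 genes tested (dark and light grey) called higher or lower at FDR below 0.1 in limma, for 7 comparisons with 0 h, 6 with the preceding time point and 2 with 2 h. Against 0 h, the red bars stand well above the dark grey ones from 8 h on, reaching 95% against 38% at 96 h, and at 4 h against 0 h they are level.

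The 40 genes together took 1.01 ± 0.024% (SD, n = 4) of all reads on genes at 0 h. This share was 1.05% at 2 h and 0.966% at 4 h. It then grew over 1.22% (8 h), 1.51% (16 h) and 1.77% (24 h) to 2.47 ± 0.263% at 48 h and 2.52 ± 0.0951% at 96 h. All samples from 8 h on lay above all samples at 0 h. Per kilobase of exon, none of the genes was among the 100 highest of 15216 genes at 0 h, and 7 were at 96 h: *P4hb* (rank 10), *Calr* (16), *Pdia3* (19), *Hspa5* (35), *Hsp90b1* (37), *Pdia6* (58) and *Canx* (95). At 0 h their ranks on this scale were 124, 107, 122, 168, 155, 425 and 246. In bulk RNA a larger number of expressing cells and more RNA per cell cannot be told apart.

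**Figure D2:**
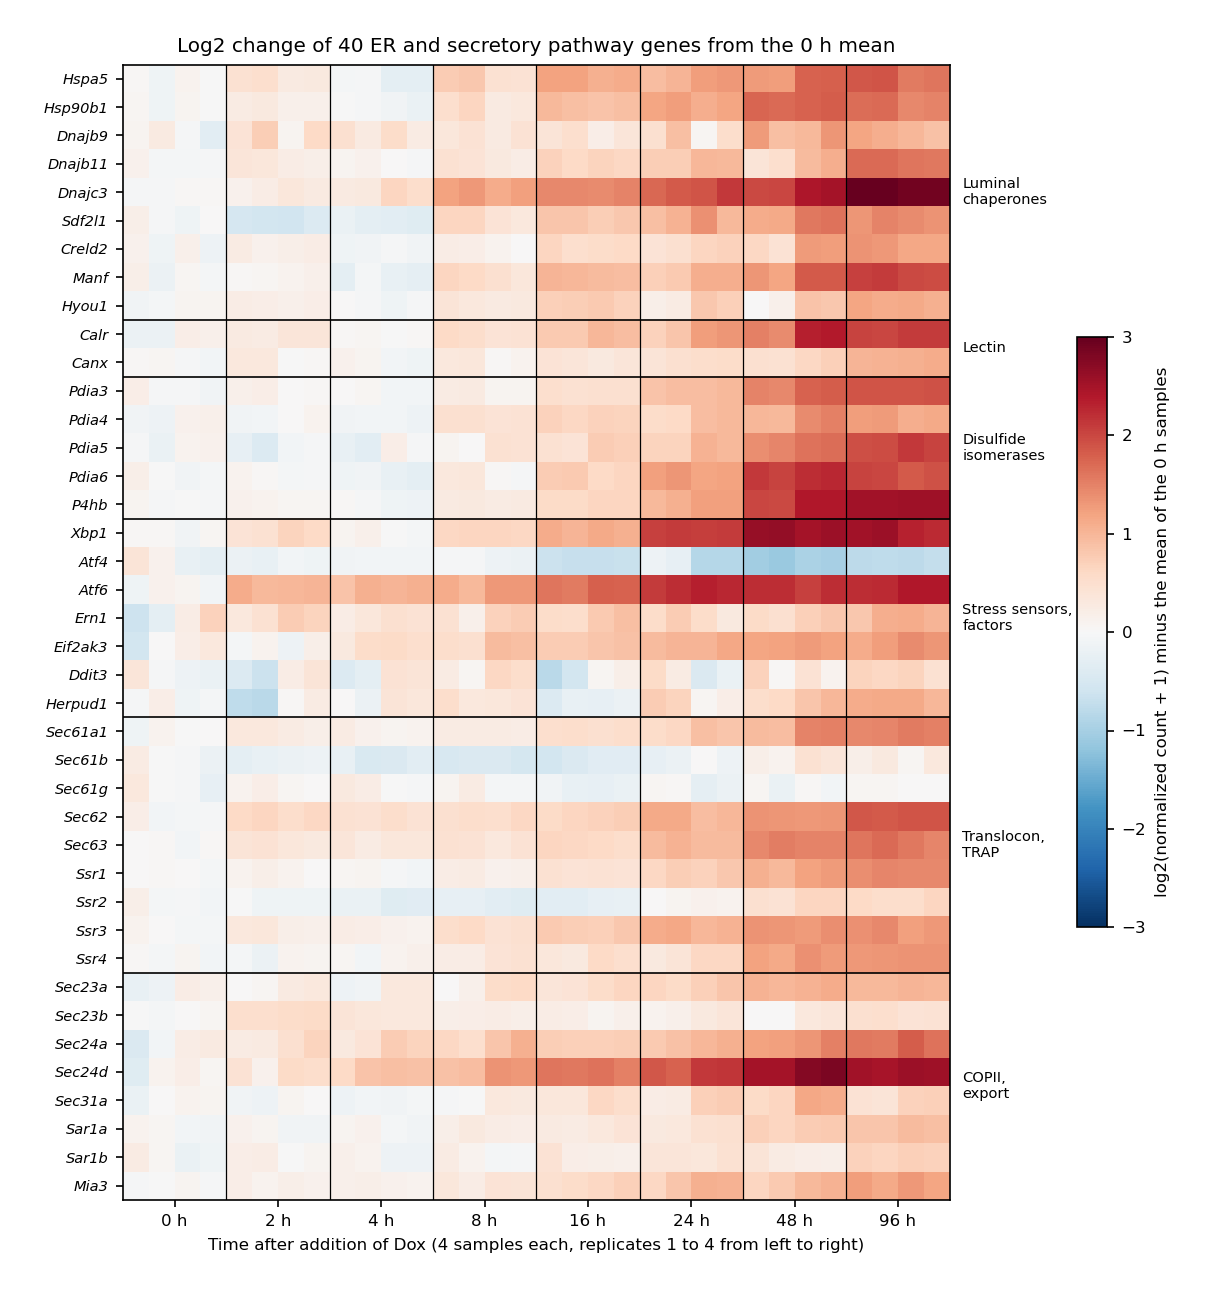
Log2(normalized count + 1) of the 40 genes (rows, grouped by role) in each of the 32 samples (columns, 4 per time point), as the difference from the mean of the 0 h samples. Red fills most rows from 16 h on, *Atf4* turns blue, *Sec61g* stays near white, and *Sec61b* and *Ssr2* are pale blue between 4 and 16 h.

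The luminal chaperones and their cofactors all rose at least 2-fold by 96 h (9 of 9, median log2 change 1.58), beside 19.9% of all genes tested. *Hspa5* (chr2:34771970-34777547, GRCm38) encodes BiP, the HSP70 of the ER lumen, which holds the stress sensors inactive until unfolded proteins draw it away. Its normalized counts at 0 h were 7263, 6545, 7597 and 7060.1. They were 9815, 10071, 8573 and 8669.9 at 2 h, and 6854, 6909.8, 5828 and 5826 at 4 h. All 2 h samples lay above all samples of both neighbouring time points. The log2 change was 0.38 ± 0.12 (SE, adjusted p = 0.00964) from 0 to 2 h and -0.55 ± 0.12 (SE, adjusted p = 0.00105) from 2 to 4 h, and neither change was called with the sets averaged (adjusted p = 0.187 and 0.15 in limma). *Hspa5* then rose by 0.78 ± 0.12 (SE, adjusted p = 1.66e-05) from 4 to 8 h. At 96 h it stood at 25716, 26081, 20942 and 21562, above every sample at 0 to 24 h.

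*Dnajc3* encodes P58IPK, a J-domain cochaperone of BiP and an inhibitor of PERK. Its counts were 409.9, 410.4, 430.4 and 433 at 0 h. The samples at 8 h gave 967, 1037, 909 and 983, and those at 96 h gave 3346, 3449.8, 3133 and 3125. None of these groups overlapped, and no other of the 40 genes rose as far. The log2 change was 1.21 ± 0.095 (SE, adjusted p = 1.05e-11) at 8 h and 2.95 ± 0.095 (SE, adjusted p = 7.12e-22) at 96 h, and the mean was higher than at the time point before at each step. *Hsp90b1*, which encodes GRP94, the HSP90 of the ER, rose 2.99-fold and *Hyou1*, a nucleotide exchange factor of BiP, 2.18-fold at 96 h. *Hyou1* was still at 2095 and 2278 in replicates 1 and 2 at 48 h, near its 0 h level of 1921 to 2179, but at 3708 and 3640.0 in replicates 3 and 4. *Manf*, a secreted protein of stressed ER, rose 4.04-fold, *Dnajb11*, another J-domain cofactor, 3.13-fold, and *Creld2*, an ER stress-inducible protein with isomerase activity, 2.36-fold. The gene model of *Manf* overlaps those of *Dcaf1* on the opposite strand and *Rbm15b* on its own, whose reads came to 72.5% and 29% of its own, and whether the counting used strand is not stated, so its value is uncertain. *Dnajb9*, which encodes ERdj4, a cofactor by which BiP represses IRE1, rose 2.05-fold.

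*Sdf2l1* went the other way at first. This subunit of a BiP chaperone complex was at 244, 211, 197 and 217 at 0 h and at 153, 147, 145 and 163 at 2 h. No 2 h sample reached the 0 h samples, and the log2 change was -0.51 ± 0.11 (SE, adjusted p = 0.000298). *Sdf2l1* was the only one of the 9 that fell at 2 h, also with the sets averaged, and it was 2.62-fold above 0 h at 96 h.

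The promoters of these genes can be read beside their course. The ER stress response element (ERSE) is a pair of short motifs at a fixed distance, bound by NF-Y at one end and by ATF6 or XBP1 at the other. RefSeq promoter windows (GRCm38.p6, 250 bases before to 50 after the start) were available for 35 of the 40 genes, 37 windows in all. The shares over all genes below are of windows, whereas matches among the 35 are counted by gene. *Hyou1*, *Sec61a1*, *Manf*, *Atf6* and *Ssr2* were not searched. The letters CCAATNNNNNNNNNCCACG, searched on both strands, were found in 39 of 32851 promoter windows of all genes (0.119%) and in those of 7 of the 35. The sites are printed 5′ to 3′ on the strand that reads CCAAT, with the fixed letters in capitals.
Hspa5 (+ gene strand, chr2:34772025-34772043): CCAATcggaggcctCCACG
Hsp90b1 far site (- gene strand, chr10:86705638-86705656): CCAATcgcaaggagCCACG
Hsp90b1 near site (- gene strand, read on the other strand, chr10:86705533-86705551): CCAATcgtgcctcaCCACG
Calr (- gene strand, read on the other strand, chr8:84847075-84847093): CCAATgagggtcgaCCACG
Canx (- gene strand, chr11:50325800-50325818): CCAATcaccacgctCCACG
Pdia6 (+ gene strand, chr12:17266491-17266509): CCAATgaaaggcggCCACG
Dnajc3 (+ gene strand, chr14:118937827-118937845): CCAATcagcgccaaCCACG
Creld2 (+ gene strand, read on the other strand, chr15:88819520-88819538): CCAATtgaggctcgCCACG
The site of *Hspa5* ended 47 bases before the RefSeq start, inside the GENCODE gene model, and the others ended 80 to 194 bases before their start.

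The stretches before *Dnajc3*, the gene with the largest rise, and *Hsp90b1*, the only one with a pair of sites, are printed on the gene strand, with the ERSE letters in capitals. That of *Dnajc3* covers the 250 bases before the start (chr14:118937682-118937931, + strand), and that of *Hsp90b1* runs from 250 to 66 bases before it (chr10:86705510-86705694, - strand).
Dnajc3: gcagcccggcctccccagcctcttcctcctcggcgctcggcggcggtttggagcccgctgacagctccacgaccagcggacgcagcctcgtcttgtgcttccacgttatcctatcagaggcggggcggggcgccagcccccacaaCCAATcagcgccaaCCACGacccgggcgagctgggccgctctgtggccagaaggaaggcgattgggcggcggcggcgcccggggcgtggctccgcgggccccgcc
Hsp90b1: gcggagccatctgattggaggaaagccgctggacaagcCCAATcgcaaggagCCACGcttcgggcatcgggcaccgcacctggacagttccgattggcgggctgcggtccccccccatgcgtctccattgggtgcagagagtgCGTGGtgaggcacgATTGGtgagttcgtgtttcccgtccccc
In *Hsp90b1* the far site reads forward and the near one in reverse, so that the letters appear there as CGTGG and ATTGG.

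The 7 genes with these letters were all higher at 96 h, with a median log2 change of 1.72 (range 1.06 to 2.95). Among the 28 with a window that lacked them, 26 were higher and 1 was lower, with a median of 1.25. Of all genes tested, 38% were higher at 96 h and 38.5% lower. At 4 h the medians were -0.09 and 0.06. These medians are a description, and the ranges overlap. The related element ERSE-II, ATTGGNCCACG, was found in 12 windows of all genes (0.0365%), among them those of *Dnajb11* and *Herpud1*. The letters TGACGTGG, a binding site of XBP1 and ATF6, were found in 222 windows (0.676%), among them those of *Sec24d* and *Sec23a*. The letters TGATGNAA, a site of ATF4 with CHOP, were found in 1304 windows (3.97%) and among the 35 genes only in *Herpud1*. A match shows the letters, not binding.

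The lectin chaperones, which hold newly glycosylated proteins, differed in size of change. *Calr* encodes calreticulin, the soluble one, and stood at 5583, 5622, 7193 and 6979 at 0 h. At 48 h it was at 17904 and 16708 in replicates 1 and 2 but at 31802 and 32624 in replicates 3 and 4, and at 96 h at 25513, 25291, 27077 and 27000.3. Every sample at 48 and 96 h lay above every sample at 0 h, and the spread between the replicate sets at 48 h was larger than the difference between the means at 48 and 96 h. The log2 change was 1.91 ± 0.15 (SE, adjusted p = 2.98e-12) at 48 h and 2.06 ± 0.15 (SE, adjusted p = 3.4e-13) at 96 h. *Canx*, the membrane-bound calnexin, rose 2.09-fold at 96 h, and its log2 change from 48 to 96 h was 0.49 ± 0.078 (SE, adjusted p = 5.3e-06).

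The disulfide isomerases, which form and reshuffle disulfide bonds, did not pass in the first hours. At 2 h none of the 5 was called in either direction in limma (log2 changes from -0.20 to 0.10, adjusted p 0.208 to 0.943), at 4 h *Pdia6* alone was lower, and from 8 h on all 5 were higher. Of all genes tested, 22.2% were higher and 22.6% lower at 2 h, 26.3% were higher at 8 h and 38% at 96 h. With the sets averaged, *Pdia6* was not called at 4 h, *Pdia4* alone was higher at 8 h, and all 5 were higher from 16 h on. *P4hb* (chr11:120560298-120573253) encodes PDI, which is also the beta subunit of the prolyl hydroxylases that modify collagen. Its counts were 6179, 5699, 5819 and 5725 at 0 h. At 48 h the samples stood at 23653, 23133, 30933 and 31019, followed by 33316, 33479.9, 33953 and 34257 at 96 h. The 3 groups did not overlap. The log2 change was 1.08 ± 0.076 (SE, adjusted p = 1.47e-12) from 24 to 48 h and 2.53 ± 0.076 (SE, adjusted p = 1.06e-22) over the whole course, and per kilobase it was the highest of the 40 genes at 96 h. *Pdia6* and *Pdia3* rose 3.84-fold and 3.73-fold, *Pdia5* 4.02-fold and *Pdia4* 2.28-fold. *Pdia6* and *Pdia4* had their highest mean at 48 h, the other 3 at 96 h.

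**Figure D3:**
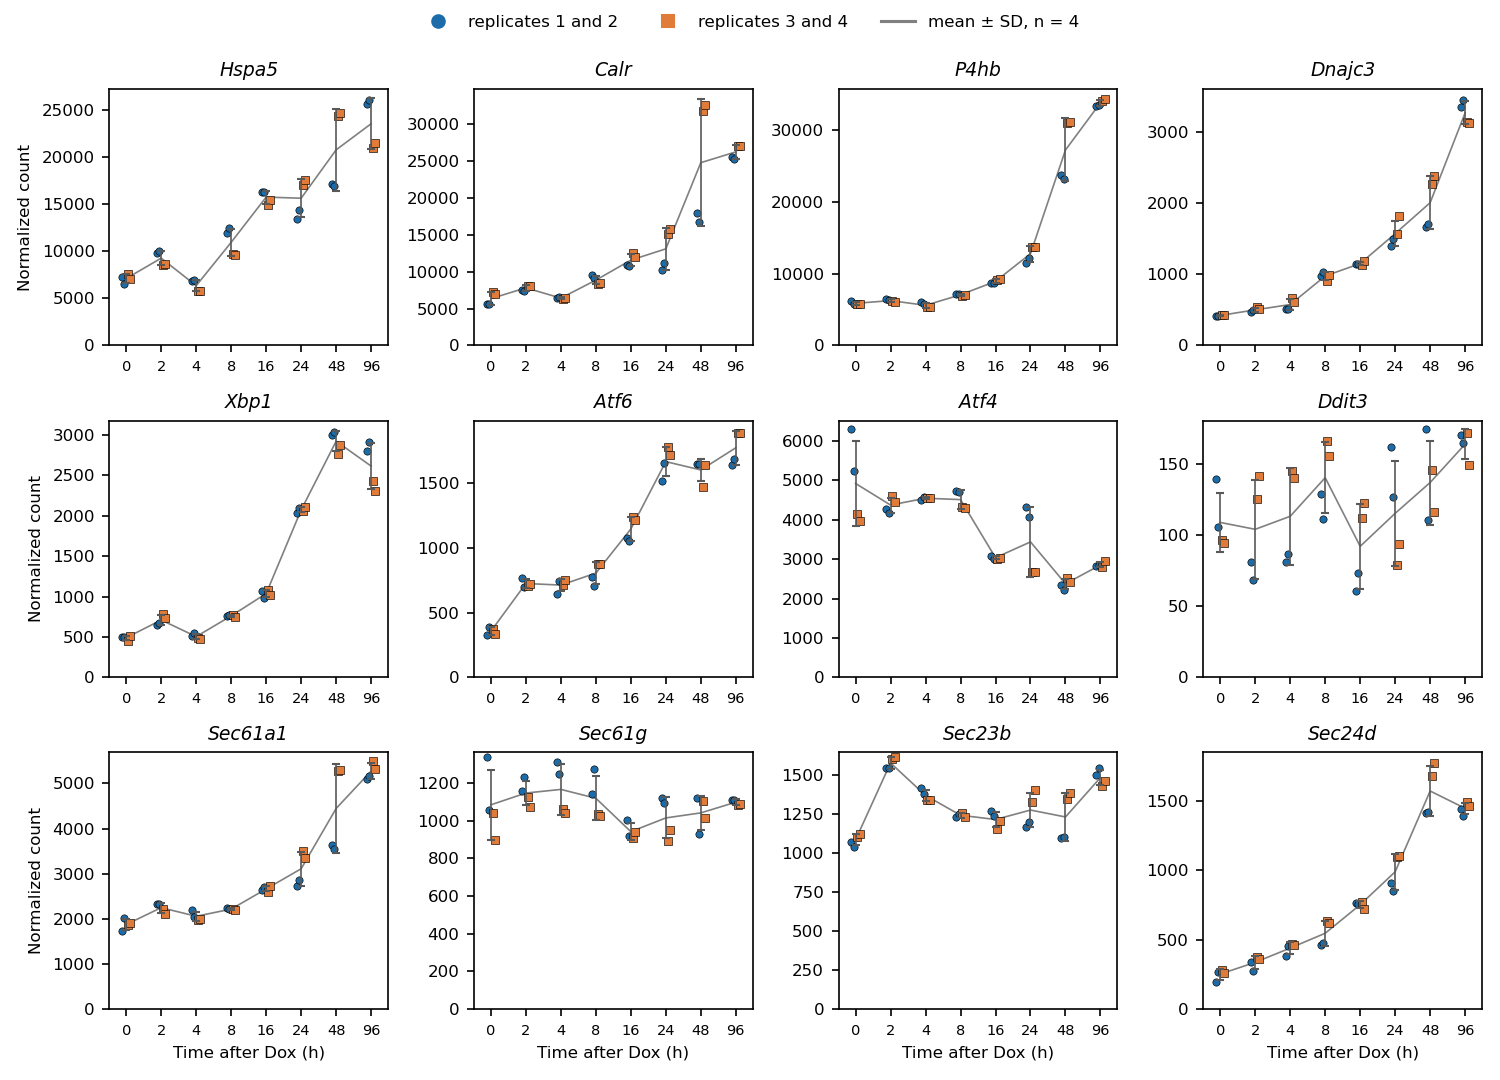
Normalized counts of 12 of the genes in each sample against time after Dox (evenly spaced), with circles for replicates 1 and 2, squares for replicates 3 and 4 and the mean ± SD of 4. *Hspa5* and *Xbp1* show a step at 2 h that is gone at 4 h, *Atf6* a step at 2 h that stays, *Atf4* a fall after 8 h, and *Calr* sets of replicates far apart at 48 h.

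The stress sensors and their transcription factors split. *Atf6* (chr1:170704674-170867771) encodes the sensor that is cut in the Golgi to release a transcription factor. Its counts were 326, 387, 375 and 338 at 0 h and 772, 696, 709 and 726 at 2 h. The 2 h samples were all above the 0 h samples, by a log2 change of 1.03 ± 0.077 (SE, adjusted p = 7.1e-12), the only rise of at least 2-fold among the 40 genes at that time (5.86% of all genes tested rose as far). From 2 to 4 h the change was -0.03 ± 0.077 (SE, adjusted p = 0.871), and the level reached 1518 to 1785 at 24 h. It was 2.32 ± 0.077 (SE, adjusted p = 1.66e-21) above 0 h at 96 h.

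*Xbp1* encodes the factor whose mRNA IRE1 splices, and reads per gene do not separate the spliced form. Its counts were 499.6, 499, 451 and 506 at 0 h. The samples at 2 h gave 648, 673, 778 and 735, and those at 4 h gave 515, 543, 486 and 469.8. The 2 h samples stood above both neighbouring groups, which overlapped. The changes were 0.53 ± 0.067 (SE, adjusted p = 1.57e-07) from 0 to 2 h and -0.49 ± 0.067 (SE, adjusted p = 2.88e-06) from 2 to 4 h, and both were called also with the sets averaged. Its largest step, 1.00 ± 0.067 (SE, adjusted p = 7.85e-12), came from 16 to 24 h, when the samples went from 987 to 1076 up to 2039 to 2104. The highest mean was at 48 h, and the change from there to 96 h was -0.17 ± 0.067 (SE, adjusted p = 0.0398), not called with the sets averaged.

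*Atf4* encodes the effector of the integrated stress response, which is mainly controlled at translation. It was the only one of the 40 genes that was lower at 48 and 96 h. Its counts were 6317, 5249.6, 4153 and 3972 at 0 h. At 16 h the samples stood at 3093, 3015, 3004 and 3039.7, followed by 2335, 2222, 2514 and 2430.5 at 48 h. All 16 h and 48 h samples lay below all 0 h samples, which were themselves widely spread between the replicate sets. The change at 48 h was -1.03 ± 0.12 (SE, adjusted p = 7.12e-09), or -1.34 within replicates 1 and 2 and -0.72 within replicates 3 and 4. From 8 to 16 h it was -0.57 ± 0.12 (SE, adjusted p = 0.00101), not called with the sets averaged, and at 24 h replicates 1 and 2 were back at 4319 and 4079 while replicates 3 and 4 were at 2674 and 2682.

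*Ddit3* encodes CHOP, the factor downstream of ATF4 that is linked to cell death under prolonged ER stress. Its counts were 139, 106, 96.7 and 94.4 at 0 h and 171, 165, 172 and 149 at 96 h. The 96 h samples were above the 0 h samples, with a change of 0.60 ± 0.25 (SE, adjusted p = 0.0295), which was not called with the sets averaged or without replicate 3. At no other time point did *Ddit3* pass against 0 h. *Mars* lies on the opposite strand over *Ddit3* and had 64576 reads in all samples against 4145 for *Ddit3*, so the value is uncertain. *Herpud1*, a part of ER-associated degradation whose promoter held both ERSE-II and the ATF4 letters, rose 2.14-fold at 96 h after a change from 8 to 16 h of -0.67 ± 0.18 (SE, adjusted p = 0.00892), which was not called with the sets averaged. The sensor genes *Ern1* (IRE1) and *Eif2ak3* (PERK) rose 2.01-fold and 2.42-fold at 96 h. *Ern1* was lowest in replicates 1 and 2 at 0 h, at 67.6 and 85.6, against 123 and 170.0 in replicates 3 and 4.

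Of the 9 genes of the translocon and the translocon-associated protein (TRAP) complex, 8 were higher at 96 h, 6 of them at least 2-fold. Of all genes tested, 38% were higher and 19.9% at least 2-fold. *Sec61a1*, the pore subunit, was at 1721, 2021, 1855 and 1902 at 0 h and at 5102, 5174, 5500.4 and 5320.3 at 96 h. These groups were far apart, with a change of 1.49 ± 0.096 (SE, adjusted p = 9.79e-15). The small subunits did not follow. *Sec61b* was at 685, 572, 562 and 516 at 0 h. The samples at 8 h gave 412, 432, 428 and 403, and those at 96 h gave 653, 711, 601 and 719. It was below 0 h in every sample at 8 h, with a change of -0.47 ± 0.084 (SE, adjusted p = 3.62e-05). At 96 h it overlapped with 0 h, and the change of 0.21 ± 0.084 (SE, adjusted p = 0.0301) was not called with the sets averaged or without replicate 2 or 4. *Sec61g* was at 1340.2, 1058, 1041 and 897 at 0 h and at 1111, 1111, 1085 and 1086 at 96 h, inside the 0 h range.

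*Sec62* and *Sec63*, which serve post-translational import, were among the early genes. *Sec62* was at 923, 760.2, 769.7 and 780.0 at 0 h. At 2 h the samples stood at 1226, 1258, 1171 and 1235, followed by 2929.7, 2902, 2962 and 2968 at 96 h. Its groups at these times did not overlap, and the changes from 0 h were 0.60 ± 0.057 (SE, adjusted p = 7.9e-10) and 1.87 ± 0.057 (SE, adjusted p = 1.41e-22). *Sec63* rose by 0.36 ± 0.053 (SE, adjusted p = 2.02e-06) at 2 h and was 1.59 above 0 h on the log2 scale at 96 h. Of the TRAP subunits, *Ssr1*, *Ssr3* and *Ssr4* rose 2.72-fold, 2.53-fold and 2.51-fold. *Ssr2* was lower than 0 h at 4, 8 and 16 h, with a change of -0.28 ± 0.059 (SE, adjusted p = 0.000338) at 4 h, and 1.49-fold higher at 96 h. A pseudogene, *Gm10704*, lies over *Ssr2* on the opposite strand and had reads equal to 10.3% of those of *Ssr2*.

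The COPII and export genes, which shape the vesicles that leave the ER, were all higher at 96 h (8 of 8, beside 38% of all genes tested), with a wide range among paralogues. The inner coat exists in alternative forms, and the log2 ratio of a pair within a sample does not depend on the size factor. *Sec24d*, a cargo adaptor, was at 195, 267, 285 and 261 at 0 h. The samples at 48 h gave 1409.6, 1417, 1679 and 1768, and those at 96 h gave 1438, 1389, 1486 and 1462. Its late samples were all above 0 h, and the change was 2.64 ± 0.12 (SE, adjusted p = 2.88e-18) at 48 h. *Sec24a* rose 3.12-fold at 96 h. The log2 ratio of *Sec24a* to *Sec24d* was 0.04 ± 0.17 at 0 h and -0.82 ± 0.058 at 16 h (SD, n = 4). It was lowest at 48 h, with -1.28 ± 0.065, and -0.85 ± 0.081 at 96 h. From 8 h on every sample lay below every 0 h sample (two-sided exact permutation test, p = 0.0286 at each of these times, the smallest that 4 against 4 samples allow, and adjusted p = 0.0545 over 21 ratio tests). The test takes the 4 samples of a time as exchangeable. With the replicate sets averaged, 2 against 2 values cannot go below p = 0.333 in the exact permutation test, so none of the ratio changes given here passed. The change of this ratio at 48 h was -1.16 within replicates 1 and 2 and -1.49 within replicates 3 and 4.

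*Sec23b*, 1 of the pair of inner coat GTPase activators, was at 1074, 1041, 1100.2 and 1122 at 0 h and at 1547, 1547, 1600.3 and 1617 at 2 h, its highest level. All 2 h samples were above 0 h, by 0.54 ± 0.065 (SE, adjusted p = 7.87e-08), and at 48 h it was at 1096 and 1100.4 in replicates 1 and 2 and at 1346 and 1384 in replicates 3 and 4. *Sec23a* rose 1.99-fold at 96 h. The log2 ratio of *Sec23a* to *Sec23b* was -0.18 ± 0.18 at 0 h, -0.55 ± 0.12 at 2 h and 0.69 ± 0.14 at 48 h (n = 4 each). It was below every 0 h sample at 2 h and above every one at 24, 48 and 96 h (exact permutation test, p = 0.0286 each, adjusted p = 0.0545). *Sar1a* and *Sar1b*, which encode the GTPases that start coat assembly, rose 1.84-fold and 1.61-fold, and their ratio changed by 0.47 at 48 h and 0.20 at 96 h with no overlap (exact permutation test, p = 0.0286 each, adjusted p = 0.0545).

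**Figure D4:**
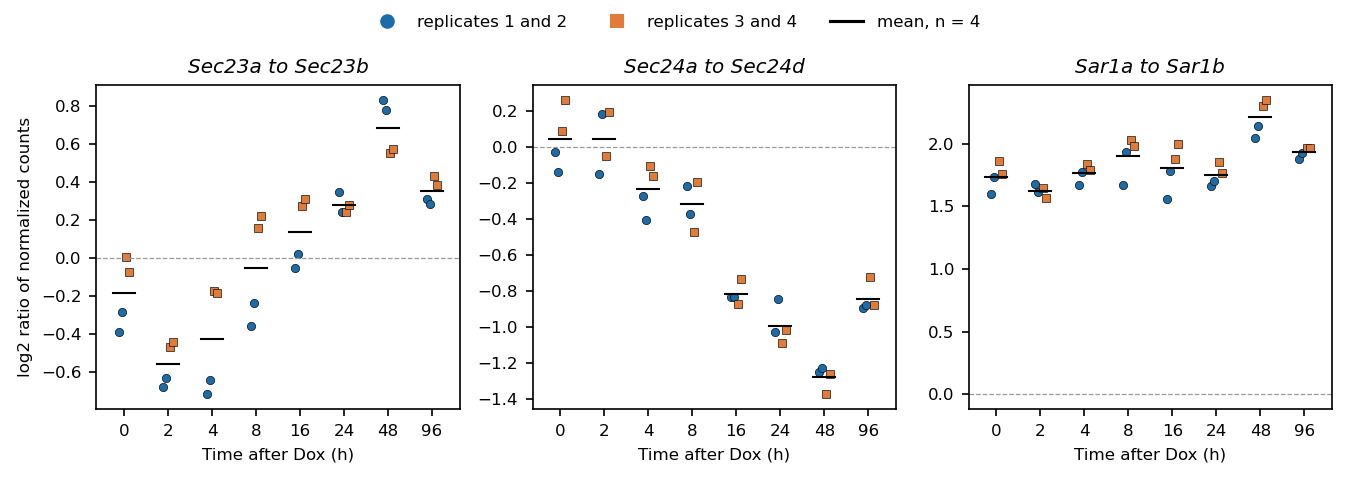
Log2 ratio of the normalized counts of paralogue pairs in each sample against time after Dox (evenly spaced), with a bar at the mean of 4. The ratio of *Sec24a* to *Sec24d* falls from a mean of 0.04 to -1.28 at 48 h, that of *Sec23a* to *Sec23b* goes from -0.55 at 2 h to 0.69 at 48 h, and that of *Sar1a* to *Sar1b* stays between 1.56 and 2.35 in all samples.

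*Sec24a* and *Sar1b* are neighbours on chromosome 11 and run in opposite directions from GENCODE starts at 51763634 and 51763687, with 52 bases between them. Their changes at 96 h were 1.64 ± 0.13 (SE, adjusted p = 2.07e-12) and 0.68 ± 0.092 (SE, adjusted p = 9.37e-08). At 8 h *Sec24a* was already higher by 0.75 ± 0.13 (SE, adjusted p = 2.77e-05), and *Sar1b*, at 0.06 ± 0.092 (SE, adjusted p = 0.641), was not called. Of the remaining export genes, *Sec31a*, of the outer coat, rose 1.48-fold at 96 h and had its highest mean at 48 h. *Mia3* encodes TANGO1, which loads collagen into COPII vesicles, and rose 2.33-fold from 440.3, 448, 471 and 434 to 1069, 992, 1105 and 1015, with no overlap.

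The lists of neighbouring steps were counted in the same fit, in which 38% of all genes tested were higher at 96 h and 38.5% lower. Of 15 ER-associated degradation genes tested, 14 were higher at 96 h and 0 lower (median log2 change 1.29), with *Selenos*, a membrane protein of that pathway, up by 2.43 on the log2 scale. Of 11 oligosaccharyltransferase genes, which attach N-glycans, 10 were higher and 0 lower (median 1.17). Of 14 signal peptidase and signal recognition particle genes, 13 were higher and 0 lower (median 0.80). Of 14 KDEL receptor and COPI genes, 13 were higher and *Copg2* was lower (median 1.18). *Kdelr3*, a receptor that returns chaperones to the ER, rose from 81.5 ± 10.7 to 3281 ± 188 (SD, n = 4). Of 19 other COPII and cargo receptor genes, 16 were higher and 0 lower (median 0.99), led by *Surf4* (2.36) and *Tmed2* (2.01). All 17 collagen folding and modification genes were higher (median 1.95). Among them *P4ha2*, the alpha partner of *P4hb* in a prolyl hydroxylase, went from 22.8 ± 14.9 to 8420.2 ± 891, and *P3h2* from under 1 to 702 ± 24.2. *P3h2* passed the filter on low counts only through samples after 0 h, so it could not have been called lower. With the replicate sets averaged, the genes higher at 96 h were 14, 10, 10, 13, 16 and 16 in these lists, in the order given, beside 33.6% of all genes, and *Copg2* was lower.

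The same shares of all genes stand beside the next lists. Of 18 targets of ATF4 and the integrated stress response, 4 were higher at 96 h and 11 lower (median -0.55). *Nupr1*, a stress-induced chromatin protein, fell from 709 ± 59.2 to 14.3 ± 3.54, and *Slc7a11*, the cystine transporter, from 39.3 ± 13.1 to 2.4 ± 0.937, while *Atf3* rose from 45.4 ± 8.72 to 537 ± 140.2. Of 14 cytosolic chaperones tested, 3 were higher and 4 lower at 96 h (median 0.08), and 3 were higher and 8 lower at 48 h (median -0.23), when 36.1% of all genes were higher and 37.3% lower. With the sets averaged, 4 of the ATF4 targets were higher and 10 lower at 96 h, and of the cytosolic chaperones 2 were higher and 3 lower at 96 h and 3 and 7 at 48 h. Of 6 further transcription factors that sit in the ER membrane, 5 were higher, or 4 with the sets averaged, and 1, *Creb3l3*, was lower. *Creb3l2* was at 209 ± 66.9 at 0 h and at 102 ± 49.1 at 2 h, a difference not called with the sets averaged, and at 2884 ± 279 at 96 h, and *Creb3l1* went from 29.3 ± 5.54 to 446 ± 106. Of 15 secreted proteins of endoderm listed, 12 were tested, and *Afp*, *Apoa1* and *Apob* did not pass the filter on low counts. *Ttr* passed it only through its samples at 48 and 96 h, so its call as higher follows from the filter. Of the 12 tested, 10 were higher and 2 lower, also with the sets averaged, with a median change of 4.38. *Col4a1* went from 46 ± 11.3 to 122854 ± 16966 and *Col4a2* from 18 ± 3.32 to 47641 ± 8682, while *Fn1* and *Apoe* fell by 3.90 and 2.05 on the log2 scale. Whether the changes of these lists bear on each other was not tested.

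**Figure D5:**
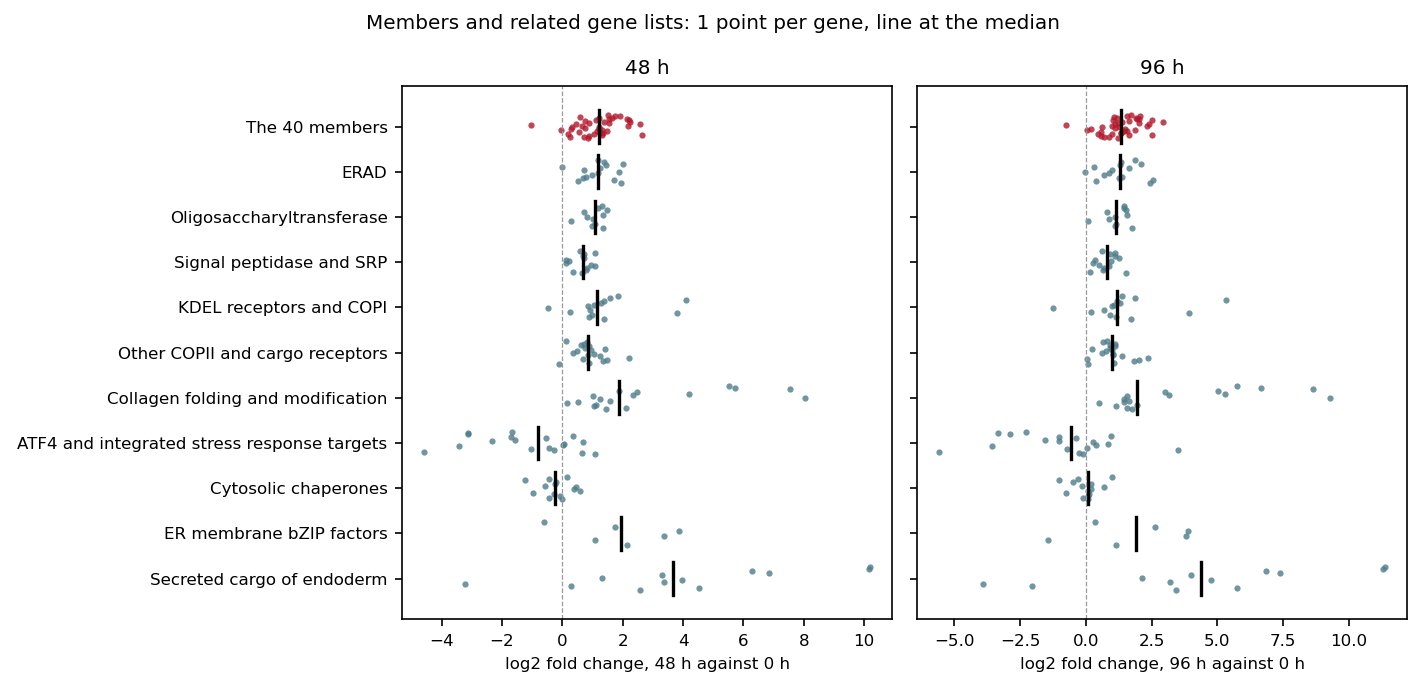
Log2 fold change at 48 h (left) and 96 h (right) against 0 h of the 40 genes (red) and of the genes tested in 10 related lists, 1 point per gene, with a line at the median. The lists of the secretory pathway have medians between 0.80 and 1.95 at 96 h, cytosolic chaperones lie around 0, and targets of ATF4 spread below it. For genes near 0 at 0 h the fitted change depends on the pseudocount of 1.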

How the data were processed

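Total RNA of 32 samples (8 time points, 4 replicates each) was sequenced from polyA-selected, stranded libraries with single-end reads. The deposited values are log2 values: the authors used cutadapt 2.7 for trimming, HISAT2 2.1.0 for alignment (GRCm38.p6) and featureCounts (Subread 1.6.4) for counting on GENCODE m18 genes, and then applied the variance-stabilizing transformation of DESeq2 1.22.1. Whether the counting used strand is not given in the sources used here. The transformation was inverted to normalized counts, and whole reads were recovered for 100% of the values (tolerance 1e-06). Because the deposited unit is log2, the main test was limma (3.58.1 in R 4.3.3) with a trend on log2(normalized count + 1), over all 32 samples, for genes with at least 10 normalized counts in at least 4 samples, with Benjamini-Hochberg adjustment and an FDR of 0.1. This setting was tested on simulated counts of independent samples. The simulation held no replicate sets, so it does not cover their effect on the p-values. Depth was 3190108 to 12301732 reads on genes (median 8870662.5), which limits the precision of low genes such as *Ern1* and *Ddit3*. Log2 ratios of paralogues were compared by exact permutation tests. Alternatives were limma-voom on the recovered reads, another scaling (TMM), other pseudocounts, no filter, an FDR of 0.05, fits of fewer samples, the replicate number as a block and, chosen after seeing the data, the means of the replicate sets and each set alone. Coordinates are from GENCODE M21 (GRCm38) and promoters from RefSeq (GRCm38.p6). The genes and lists were chosen with earlier results of these data known. Genes named were the 40 and, in the related lists, at most the 2 largest rises and 2 largest falls among genes past the FDR threshold and 4-fold at 48 or 96 h, or the members of a count of 5 or fewer. The result of 1 gene is not reported here. Figures were drawn with matplotlib 3.10.9.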

Additional observations from a re-analysis of the deposited data

Results flagged for a closer look

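In the groups of 4 samples, 10 of 344 had 1 sample set apart from the others by a large part of the range (Dixon's criterion), and chance gives about 1 in 20. At 0 h, *Xbp1* was 451 in replicate 3, *Sec62* was 923 in replicate 1 and *Ssr2* was 2998 in replicate 1. *Ssr2* was again high in replicate 1 at 2 h, at 2638. *Sec63* was 535 in replicate 2 at 4 h, below the others, and 931 in replicate 2 at 24 h, above them. *Sar1b* was 517 in replicate 1 at 16 h. *Atf6* was 1474 in replicate 3 at 48 h and *Herpud1* was 509.6 in replicate 4 at 96 h, both below the other replicates. The log2 ratio of *Sec24a* to *Sec24d* was -0.72 in replicate 3 at 96 h, above the others and still below every 0 h sample.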

How the results depend on the processing

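Of the counts of genes called under all alternatives, 483 stayed within 1.5 times the reported count and 57 did not. For single genes, 4813 values kept direction and side of the threshold, 139 lost their call, 77 gained one and 11 changed sign. With the means of the replicate sets, 42 of 280 single-gene results lost their call. The genes higher were then 6 at 2 h and 16 at 8 h against 0 h, and between neighbouring time points 0 (2 to 4 h), 6 (4 to 8 h), 4 (8 to 16 h), 9 (16 to 24 h) and 12 (48 to 96 h). The genes lower were 1 at 2 h and 2 at 4 h against 0 h, 1 from 2 to 4 h, and 0 from 8 to 16 h and from 48 to 96 h. With replicates 1 and 2 alone, the genes lower were 6, 7, 6, 2 and 2 at 2, 4, 16, 24 and 48 h against 0 h, 14, 1, 3, 3 and 1 in the steps to 4, 8, 24, 48 and 96 h, and 4 at 48 h against 2 h. With replicates 3 and 4 alone, 26 were higher at 2 h, beside 3827 of all 15227 genes tested, and 32 from 16 to 24 h. In that fit 12 were lower at 4 h, beside 3868 of all genes. In the steps to 4, 24, 48 and 96 h, 20, 3, 3 and 10 were lower, and 2 at 96 h against 2 h. With only the samples of the times compared, 1 was lower at 2 h, beside 2903 of all genes, and 1 from 4 to 8 h. Without a filter, and also at an FDR of 0.05, 5 were lower from 2 to 4 h and 2 from 8 to 16 h. The cause of these differences was not tested.

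Changes of sign against 0 h came with replicates 3 and 4 alone, on the log2 scale, for *Calr* (-0.16 at 4 h), *Atf4* (0.16 at 2 h, 0.16 at 4 h, 0.085 at 8 h), *Ern1* (-0.033 at 24 h), *Eif2ak3* (-0.25 at 2 h), *Ddit3* (0.48 at 2 h, 0.29 at 16 h), *Herpud1* (0.23 at 2 h) and *Sec61g* (0.13 at 48 h), and with replicates 1 and 2 alone for *Ddit3* (-0.53 at 4 h).

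Samples of the same replicate number deviated together no more than samples of the other number of their set (mean correlation 0.196 in both), and 15 of 32 samples were closest to their own number, so the numbers were not taken to pair samples. With the replicate number as a block, 6 of 280 single-gene results gained a call and 0 lost one, and all counts stayed within 1.5 times. The ratio tests by sign-flip within the block gave p = 0.125, the smallest possible with 4 pairs, for every ratio change reported (exact test), and with the means of the replicate sets p = 0.333, the smallest possible with 2 against 2.

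Leaving out 1 replicate at a time gave these ranges of genes higher against 0 h: 12 to 14 (2 h), 9 to 10 (4 h), 24 to 28 (8 h), 32 to 33 (16 h), 34 to 35 (24 h), 35 to 37 (48 h) and 37 to 38 (96 h). In the steps to 4, 8, 16, 24, 48 and 96 h they were 1 to 3, 11 to 15, 14 to 17, 14 to 19, 25 to 28 and 13 to 20, and against 2 h 33 to 34 (48 h) and 35 to 37 (96 h). Genes lower were 1 to 3, 3 to 5, 2, 3 to 4, 1 to 2, 1 and 1 against 0 h, 3 to 6, 0, 2 to 3, 0, 1 to 2 and 0 to 4 in the steps, and 2 and 1 against 2 h. Calls among all genes tested fell as well. At 2 h, 3373 were higher in the main fit, and 2939, 2919, 2991 and 2913 without replicate 1, 2, 3 and 4. At 8 h, 4011 became 3576, 3531, 3564 and 3491, and at 96 h 5779 became 5574, 5525, 5539 and 5559. For the steps and the comparisons with 2 h, the counts of all genes are not given. With 1 replicate left out, the exact p of the ratios was 0.1, the smallest possible with 3 against 3.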
